A study of Homo sapiens with 6 samples.

Results

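The Twist line and the control line of HMLE cells, immortalised human mammary epithelial cells, were compared under the solvent DMSO alone. The control line had been infected with a pBabe-shGFP retrovirus and the Twist line with a pBabe-Twist retrovirus, and the comparison rests on 2 of the 6 arrays of the study, the control DMSO array and the Twist DMSO array. Both lines were grown in a mix of DMEM with serum, insulin, hydrocortisone and EGF, and MEGM, a mammary epithelial medium. The labels do not say whether a line is a clone or a mixed population of infected cells. The other 4 arrays held the same lines with Cmp302, a compound known here only by its code name, titled 5 µM and 10 µM. Source names and treatment tags of those 4 samples give 2 µM for 4 and 8 h in place of the 6 h and the doses of the titles and protocol, so they are called here by their titles.

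Of 19775 genes read by the arrays, 12516 lay above the signal floor of 3.71 log2 units on at least 1 of the 2 DMSO arrays and are called measured. A difference is the Twist signal minus the control signal in log2 units, and a gene is called higher or lower when it passed 2-fold, which is a difference of 1. Among measured genes 1490 (11.9%) were higher and 1688 (13.5%) were lower, and these shares are the background for every count given for a gene family. With 1 array per group there is no replicate and no p-value for the DMSO pair. Where a gene lay at the floor in one line, the fold is a bound and is written as at least that size.

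Twist1 is a basic helix-loop-helix transcription factor of mesoderm and neural crest, and its forced expression in epithelial cells is a standard model of the epithelial-mesenchymal transition. In that transition cells lose epithelial adhesion and take on a migratory, fibroblast-like form. Twist factors bind E-boxes, short DNA motifs of the form CANNTG, and the E-box repressors of the ZEB and SNAI families bind CACCTG and its reverse complement CAGGTG.

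TWIST1 signal was 10.70 on the control DMSO array and 11.57 on the Twist DMSO array, a difference of 0.87, which is short of 2-fold. Its values on the Cmp302 arrays were 10.51 and 10.48 in control cells and 11.96 and 11.35 in Twist cells, so all 3 Twist arrays lay above all 3 control arrays. It was read by 1 probe set, and whether that probe set reads the retroviral copy was not analysed here. The adhesion molecule CDH1 (E-cadherin) fell from 13.24 to the floor, and the intermediate filament gene VIM went from 11.68 to 13.20. All 7 epithelial markers measured (CDH1, EPCAM, KRT5, KRT14, KRT8, KRT18 and ESRP1) were lower in Twist, and 5 of 6 fibroblast markers (LUM, DCN, PDGFRB, THY1 and FAP) were higher. The sixth, PDPN, read 10.73 in control and 4.91 in Twist. In bulk RNA, fewer cells of a type and less RNA per cell cannot be told apart.

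Most markers of other cell types were at the floor, but PECAM1, FABP4, CIDEC and ACTA2 were above it and past 2-fold higher in Twist on all 3 pairs. Their part in the results was not tested. Of 7 endothelial markers only PECAM1 was above the floor (4.05 in control and 7.64 in Twist), while CDH5, VWF, CLDN5, ESAM, EMCN and PLVAP were at it on all 6 arrays. Among 6 fat cell markers FABP4 read 8.18 and 10.89 and CIDEC 4.56 and 5.95, with ADIPOQ, LEP, PLIN1 and LIPE at the floor. Of the 6 blood markers on the array only CD14 was above the floor, at 4.81 and 3.99, and none of the 5 melanocyte and glial markers was. In smooth muscle, ACTA2 read 9.62 and 10.76, MYH11 5.34 on both arrays, and CNN1 and MYOCD were at the floor.

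The only test the design allows of the line uses all 6 arrays. Limma was fitted with a factor for treatment and a term for line, which was tested, in the 12482 genes that exceeded the floor on 2 or more arrays, with p-values adjusted over all of them by the Benjamini-Hochberg method. It called 1709 genes (13.7%) higher and 1857 (14.9%) lower in Twist. With the DMSO arrays left out the counts were 3584 and 3701, and with no filter on low signals they were 829 and 1244. Its error is the scatter of the line difference over 3 treatments, with 2 residual degrees of freedom, and is not replicate error. Where a line lay at the floor on all its arrays, its values were set equal before the fit. The fitted difference is then a bound too, and its SE and p-value leave out the scatter of that line. In the text, signals in a row of 3 are given for DMSO, then the arrays titled 5 µM and 10 µM, and an SE is that of the fitted line difference.

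The families described below hold 2129 gene symbols in 46 lists, of which 1956 were on the array and 1275 were measured. Of these 212 were higher and 336 lower under DMSO, or 162 and 251 on all 3 treatment pairs. The corresponding shares of all measured genes on all 3 pairs were 6.71% higher and 8.6% lower. All Twist arrays lay above all control arrays in 24.2% and below them in 25.4% of measured genes. Receptors had 46 higher and 53 lower of 200, transcription factors 37 and 43 of 208, ion channels 17 and 30 of 114, secreted factors 46 and 93 of 231, and metabolic genes 66 and 117 of 522. In each of these groups the shares past 2-fold exceeded the background in both directions. For metabolic genes the higher share was 12.6%, near the background of 11.9%. That group also counts a list of signalling genes, the G protein, cyclase and phosphodiesterase genes, with 11 higher of 54. The excess of higher metabolic genes is therefore not one of metabolic enzymes alone. The lists were chosen with earlier results of these data known, so an excess over the background is not a result about the roles. The median difference ran from -0.54 for secreted factors to 0.02 for transcription factors, against -0.01 for all measured genes. For secreted factors it was -0.22 and -0.25 on the Cmp302 pairs.

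**Figure D1:**
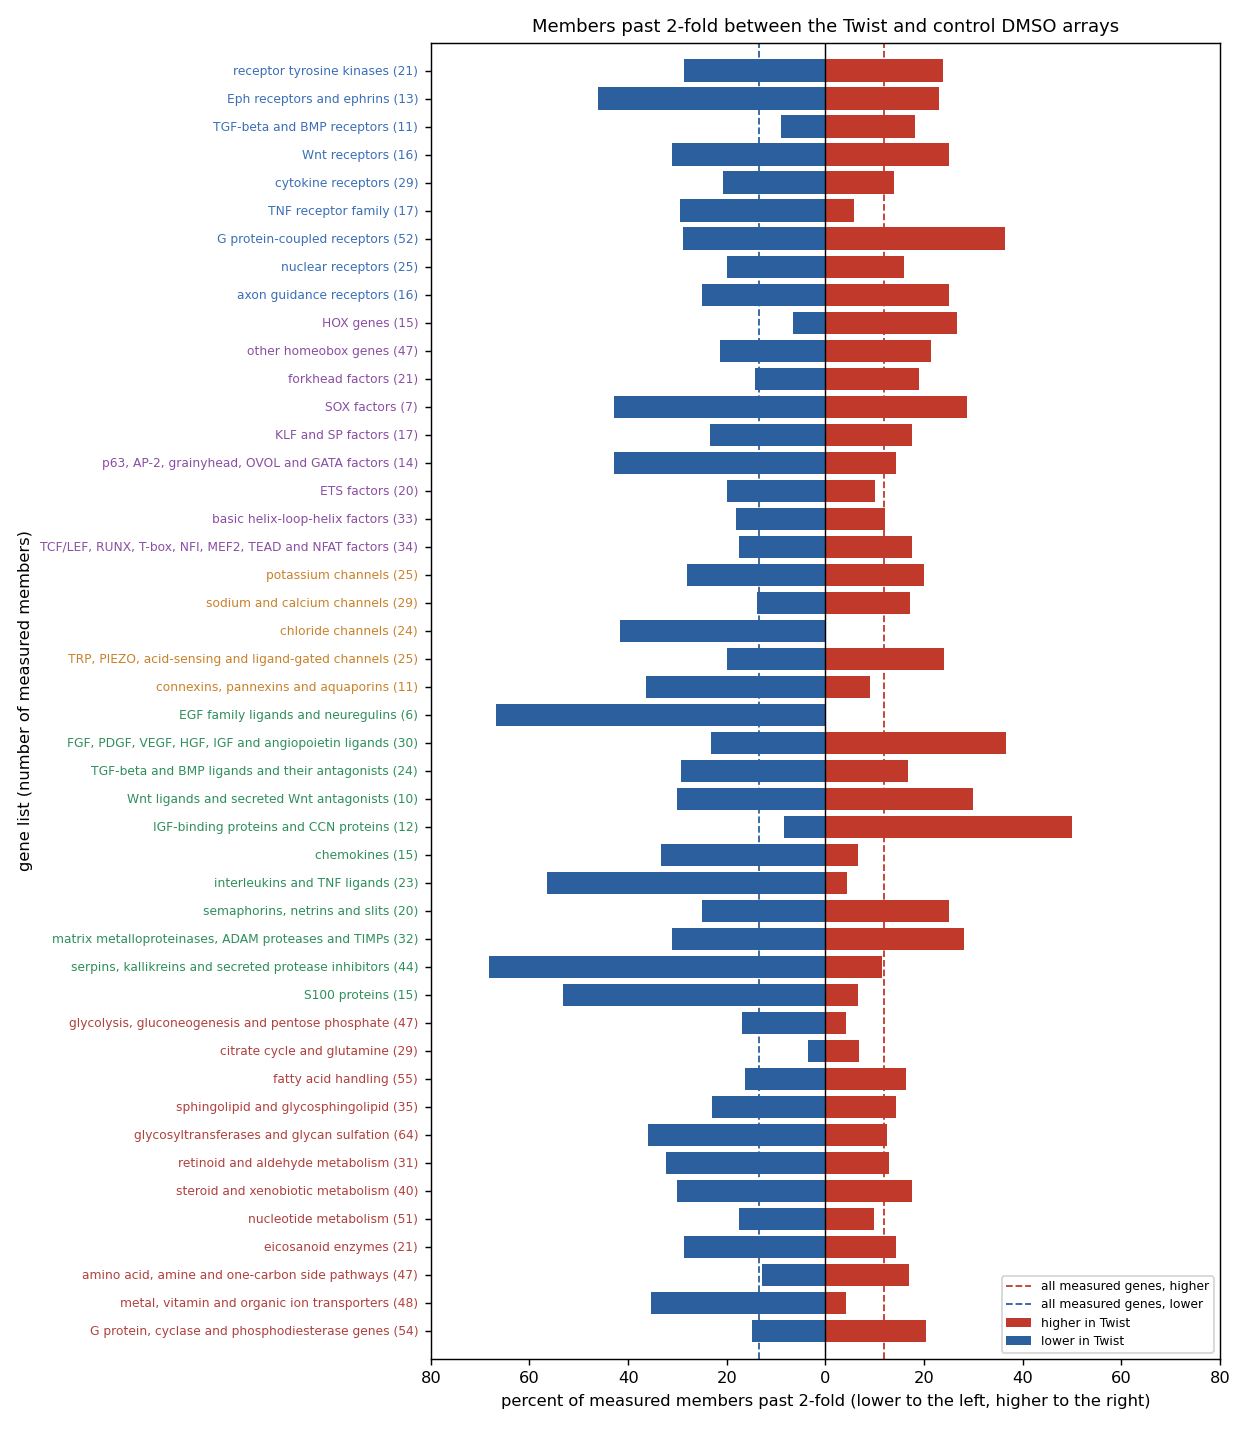
Share of measured members past 2-fold between the Twist and control DMSO arrays in each gene list, in percent, with lower genes to the left and higher genes to the right. List names are coloured by role, the number of measured members is in brackets, and dashed lines mark the shares of all measured genes, 13.5% lower and 11.9% higher. Serpins, kallikreins and secreted protease inhibitors reach furthest to the left and IGF-binding and CCN proteins furthest to the right.

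The sequences near the start sites of genes from each role are shown because 2-fold lower genes held CACCTG or CAGGTG more often than other genes. In windows of 300 bases around the RefSeq start site (GRCh38.p14), searched on both strands, this motif was in 391 of 1344 promoters of lower genes (29.1%), 171 of 1139 of higher genes (15%) and 1295 of 7740 of genes within 2-fold (16.7%). It was in 18.2% of promoters of measured genes and 20.6% of all 35116 promoters of the same length. The gene sets hold 1 promoter per gene and the 35116 were not so limited, so the 2 kinds of share are not alike. The Twist-type E-box CATCTG or CAGATG was in 10.3% of lower, 11.2% of higher and 8.94% of other measured genes, and in 14.7% of all promoters. Median GC was 65.7%, 65% and 65.3% in lower, higher and other genes, and 58.7% in all promoters. These are counts of letters with no test, and a match is not a binding site. The 5 lower genes printed were the receptor gene ADGRG1 (chr16:57619488-57619787, plus strand), the factor gene TFCP2L1 (chr2:121285153-121285452, minus strand), the channel gene KCNJ15 (chr21:38272258-38272557, plus strand), the secreted S100A7 (chr1:153460602-153460901, minus strand) and LCN2 (chr9:128149203-128149502, plus strand). They were chosen after their values and motifs were seen, as lower genes with 2 CACCTG or CAGGTG each. The higher genes WNT5A (chr3:55487257-55487556, minus strand), with 1, and PRRX1 (chr1:170663881-170664180, plus strand), with 0, are set beside them. Each sequence runs 5′ to 3′ along the gene's strand, and capitals mark the E-boxes of both kinds. S100A7 also holds 1 CAGATG.
ADGRG1: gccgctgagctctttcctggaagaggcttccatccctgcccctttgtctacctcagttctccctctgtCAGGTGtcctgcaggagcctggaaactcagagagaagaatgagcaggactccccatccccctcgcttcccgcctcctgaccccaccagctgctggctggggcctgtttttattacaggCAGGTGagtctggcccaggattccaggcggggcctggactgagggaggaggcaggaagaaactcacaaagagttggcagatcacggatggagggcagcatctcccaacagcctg
TFCP2L1: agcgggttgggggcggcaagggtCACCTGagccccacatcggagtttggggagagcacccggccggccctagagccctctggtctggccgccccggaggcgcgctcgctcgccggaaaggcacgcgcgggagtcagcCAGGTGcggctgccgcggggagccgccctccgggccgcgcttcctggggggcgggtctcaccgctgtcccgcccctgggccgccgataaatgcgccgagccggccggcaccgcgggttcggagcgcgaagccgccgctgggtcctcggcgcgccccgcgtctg
KCNJ15: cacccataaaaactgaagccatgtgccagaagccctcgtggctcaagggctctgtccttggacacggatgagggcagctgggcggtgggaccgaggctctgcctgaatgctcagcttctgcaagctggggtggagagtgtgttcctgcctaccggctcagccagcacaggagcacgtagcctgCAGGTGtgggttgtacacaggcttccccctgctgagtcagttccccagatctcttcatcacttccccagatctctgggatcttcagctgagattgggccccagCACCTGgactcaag
S100A7: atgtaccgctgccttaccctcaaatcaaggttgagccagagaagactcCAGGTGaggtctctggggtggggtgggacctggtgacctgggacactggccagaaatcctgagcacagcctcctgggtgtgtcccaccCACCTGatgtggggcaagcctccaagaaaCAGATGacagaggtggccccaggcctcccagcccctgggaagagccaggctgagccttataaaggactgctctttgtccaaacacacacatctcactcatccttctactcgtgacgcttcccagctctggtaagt
LCN2: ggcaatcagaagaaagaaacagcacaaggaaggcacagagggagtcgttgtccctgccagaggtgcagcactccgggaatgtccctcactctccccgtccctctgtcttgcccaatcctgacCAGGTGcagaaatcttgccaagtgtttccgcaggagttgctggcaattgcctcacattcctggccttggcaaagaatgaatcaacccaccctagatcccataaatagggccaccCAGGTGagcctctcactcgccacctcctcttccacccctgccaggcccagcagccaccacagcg
WNT5A: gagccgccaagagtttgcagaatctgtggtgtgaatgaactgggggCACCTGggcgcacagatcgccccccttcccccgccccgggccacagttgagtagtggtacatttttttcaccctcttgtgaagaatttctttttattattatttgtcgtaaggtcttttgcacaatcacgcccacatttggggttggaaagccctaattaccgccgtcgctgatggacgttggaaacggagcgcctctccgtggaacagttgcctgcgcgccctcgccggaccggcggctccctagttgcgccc
PRRX1: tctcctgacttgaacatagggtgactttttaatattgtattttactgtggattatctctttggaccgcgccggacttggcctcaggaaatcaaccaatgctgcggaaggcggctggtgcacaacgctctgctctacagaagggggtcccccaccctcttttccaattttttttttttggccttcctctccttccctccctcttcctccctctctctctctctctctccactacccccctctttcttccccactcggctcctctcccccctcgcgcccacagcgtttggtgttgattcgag

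Receptor tyrosine kinases exchanged members. Of 21 measured, 5 were higher and 6 lower past 2-fold under DMSO, and the limma fit over 6 arrays called 6 higher and 5 lower of 20. The kinases that gained were DDR2, a receptor for fibrillar collagen, the PDGF receptors PDGFRA and PDGFRB, FGFR1 and INSR, the insulin receptor. Those lower under DMSO were FGFR3, the neuregulin receptor ERBB3, STYK1, MST1R (the receptor for macrophage-stimulating protein), PTK7 and EGFR. EGFR was lower on the DMSO pair only.

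DDR2 was at the floor on all 3 control arrays and read 9.84, 11.38 and 11.44 in Twist. It was at least 69.9-fold higher under DMSO, and limma gave a line difference of 7.17 (SE 0.37, adjusted p = 0.00011). PDGFRA was likewise at the floor in control and read 8.98, 9.17 and 7.04 in Twist. PDGFRB, a marker of fibroblasts and pericytes, read 4.00, 4.04 and 4.06 in control against 9.03, 7.70 and 7.55. In each of the 3 genes the Twist arrays lay wholly above the control arrays.

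FGFR3 read 11.71, 11.25 and 11.14 in control and 4.72, 5.03 and 5.34 in Twist, so the lines did not overlap. That is a 127-fold lower signal under DMSO, with a fitted difference of -6.34 (SE 0.29, limma adjusted p = 6.7e-05). FGFR1 went the other way, from 7.99, 8.21 and 8.00 in control to 11.51, 11.82 and 11.76, a fitted rise of 3.63 (SE 0.19, limma adjusted p = 0.00012). FGFR1 and FGFR3 bind overlapping sets of fibroblast growth factors. ERBB3 read 9.33, 9.57 and 9.36 in control, and 3.82 and then the floor in Twist. EGFR, by contrast, read 10.94, 10.78 and 10.47 in control and 9.81, 10.95 and 11.11 in Twist. Its lines overlapped, and the fit did not call it (limma adjusted p = 0.87). FGFR1, INSR, MST1R, PTK7 and EGFR were named after their values were seen.

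Ephrins and their Eph receptors, a contact-dependent signalling system, had 3 higher and 6 lower of 13. EPHA4 read 3.90, 3.79 and 3.71 in control and 10.94, 9.76 and 9.54 in Twist, with the lines far apart. EPHB6, whose kinase domain is inactive, went from 3.79 to 8.51 under DMSO. The ligand EFNA1 was lost, with 8.71, 8.39 and 8.40 in control and the floor on every Twist array, at least 31.9-fold lower. EPHA1 (6.33) and EFNB3 (6.58) read the floor and 4.31 in Twist. EFNA5 read 10.72 and 12.25, but the fit did not call it (limma adjusted p = 0.074).

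Of 11 measured TGF-beta and BMP receptors, 2 were higher and 1 lower, and 8 were within 2-fold. The co-receptor TGFBR3 (betaglycan) was at the floor in control and read 10.85, 10.81 and 10.68 in Twist. Its line difference of 7.07 had an SE of 0.19 (limma adjusted p = 2.6e-05). BAMBI, a decoy receptor without a kinase domain, went from 5.61 to 7.73, and the BMP receptor BMPR1B from 8.58 to the floor. The signalling receptors TGFBR1 and TGFBR2, named after their values were seen, read 11.75 and 12.34 in control and 12.58 and 12.71 in Twist, within 2-fold.

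Wnt receptors and co-factors had 4 higher and 5 lower of 16. ROR1, a receptor tyrosine kinase-like receptor for WNT5A, read 8.30, 8.16 and 8.35 in control and 12.12, 10.96 and 10.71 in Twist. The frizzled receptors split. FZD1 went from 8.56 to 11.38 and FZD2 from 4.66 to 6.56, whereas FZD3 was lost from 8.83, 9.35 and 9.43 to the floor and FZD5 went from 10.42 to 8.76. FZD7 read 9.25 and 11.31, and its 3 Twist arrays lay above the control arrays without a call by the fit (limma adjusted p = 0.073). RNF43, a ubiquitin ligase that removes frizzled receptors from the surface, went from 7.06 to the floor, and KREMEN1, a receptor for Dickkopf proteins, from 6.70 to 4.25. FZD2 and FZD5 were named after their values were seen.

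Cytokine receptors had 4 higher and 6 lower of 29, near the background for higher genes. LIFR, the receptor for leukaemia inhibitory factor, read 5.48, 5.57 and 5.70 in control and 11.27, 10.35 and 10.00 in Twist, a fitted difference of 4.95 (SE 0.34, limma adjusted p = 0.00029). IL1R1 went from 8.15 to 10.82 and IL11RA from 4.59 to 6.30. IFNLR1, the receptor chain for lambda interferons, was lost from 9.39, 9.59 and 9.76 to the floor. IL20RB went from 11.43 to 8.65 and IL27RA from 8.07 to 5.61.

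Among 17 TNF receptors, 1 was higher and 5 lower. TNFRSF1B read 3.96 and 5.48, TNFRSF11A (RANK) 6.77 and 4.15, and the TRAIL receptor TNFRSF10A 12.05 and 9.65. NGFR read 6.60 in control and the floor in Twist under DMSO. On the Cmp302 arrays it read 6.46 and 6.61 in control and 5.32 and 6.53 in Twist, so the lines overlapped and the fit made no call (limma adjusted p = 0.12).

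G protein-coupled receptors had 19 higher and 15 lower of 52. The cannabinoid receptor CNR1 was at the floor in control and read 11.19, 10.36 and 10.11 in Twist, at least 178-fold higher under DMSO (fitted difference 6.84, SE 0.27, limma adjusted p = 4.3e-05). The angiotensin receptor AGTR1 was also at the floor in control and read 9.58, 9.47 and 8.98. OXTR, the oxytocin receptor of myoepithelial and uterine muscle cells, read 4.14, 4.01 and 4.04 in control and 9.50, 9.13 and 8.52 in Twist. In all 3 the Twist arrays were the high ones and no array overlapped.

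The adhesion receptor ADGRG1 (GPR56), whose promoter is printed above, read 11.29, 10.89 and 10.50 in control and 4.48, 4.81 and 4.57 in Twist, 112-fold lower under DMSO. The ATP and ADP receptor P2RY1 was lost from 9.66, 9.83 and 9.96 to the floor, and ADGRF4 from 9.15 to the floor. The other purine receptors, named after their values were seen, were P2RY2, which went from 7.86 to the floor, and the ATP-gated channel P2RX7, from the floor to 6.13.

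Receptors for lipid mediators, picked after the values were seen, are given by their ligand. For lysophosphatidic acid, LPAR1 went from 11.51 to 13.38 and LPAR4 from the floor to 5.68, while LPAR2 went from 6.45 to the floor and LPAR3 from 10.93 to 7.83. For sphingosine 1-phosphate, S1PR3 read 7.57, 7.90 and 7.76 in control and 12.01, 12.28 and 12.47 in Twist, a fitted difference of 4.51 (SE 0.20, limma adjusted p = 6e-05). S1PR1 went from 7.24 to 3.88 and S1PR5 from 6.23 to the floor, and S1PR2 was within 2-fold at 8.29 and 8.18. Of the prostanoid receptors, PTGFR went from the floor to 8.60, PTGER4 from 8.91 to 12.88 and TBXA2R from 4.45 to 8.28. The fit called each of these changes in the direction seen under DMSO, S1PR2 aside. PTGER2 read 7.75 and 9.07 without a call (limma adjusted p = 0.23).

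Nuclear receptors had 4 higher and 5 lower of 25, and the fit called 7 and 6 of 26. NR2F1 (COUP-TFI), an orphan receptor of neural crest and mesenchyme, read 6.23, 6.20 and 6.30 in control and 12.70, 11.04 and 10.19 in Twist. PPARG, the adipogenic lipid-sensing receptor, read 6.47, 6.31 and 6.16 against 10.34, 11.26 and 11.21, a fitted difference of 4.62 (SE 0.30, limma adjusted p = 0.00027). RORA went from the floor to 7.61. The vitamin D receptor VDR was lower, at 12.73, 12.47 and 12.45 in control and 9.27, 9.96 and 9.97 in Twist. The oestrogen receptor ESR1 went from 6.06 to the floor and the thyroid hormone receptor THRB from 8.91 to 6.93.

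Axon guidance receptors had 4 higher and 4 lower of 16. NRP1 and NRP2, paralogous co-receptors for semaphorins and VEGF, differed in direction. NRP1 read 10.84, 10.97 and 10.55 in control and 12.86, 12.29 and 12.16 in Twist. NRP2 read 8.68, 8.40 and 8.06 in control and 4.99, 4.63 and 5.04 in Twist. The fitted differences were 1.65 (SE 0.21) and -3.50 (SE 0.23), with limma adjusted p = 0.0033 and 0.00025. ROBO4 went from 5.54 to 8.14 and PLXND1 from 4.73 to 6.65, while the netrin receptor NEO1 went from 6.73 to 4.44 and PLXNB1 from 5.53 to 3.84.

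**Figure D2:**
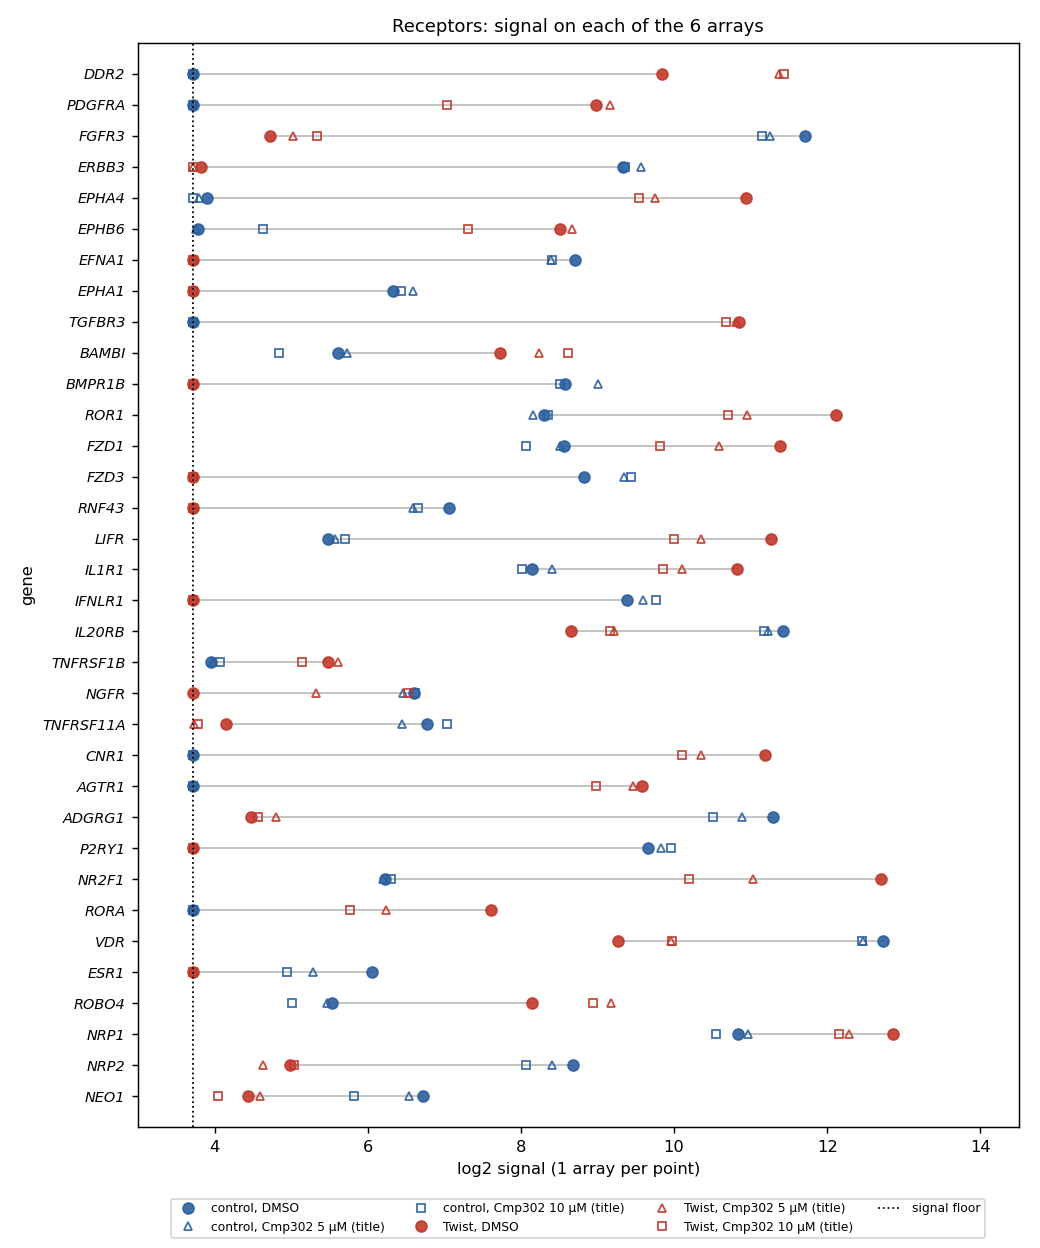
Log2 signal of receptor and receptor-ligand genes named by rule on each of the 6 arrays, 1 point per array. Blue marks the control line and red the Twist line, filled circles the DMSO arrays joined by a grey line, open symbols the Cmp302 arrays, and the dotted line the floor at 3.71. Blue and red points lie apart in every row but NGFR.

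Transcription factors were measured in near equal numbers of higher and lower genes. The 47 homeobox genes outside the HOX clusters had 10 of each. PRRX1, a homeobox factor of limb and craniofacial mesenchyme, was at the floor on all 3 control arrays and read 12.67, 12.94 and 12.62 in Twist. It was at least 497-fold higher under DMSO, with a fitted difference of 9.03 (SE 0.21, limma adjusted p = 2.6e-05). Its printed promoter holds neither E-box. SIX2 and SIX3, factors of kidney progenitors and of forebrain and eye, were also at the floor in control. SIX3 read 10.60, 9.82 and 9.25 and SIX2 10.20, 9.77 and 9.07 in Twist.

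Other homeobox genes that were higher, named after their values were seen, were POU3F3 (floor to 9.85), the craniofacial and limb factor MSX2 (floor to 9.05), SHOX2 (5.46 to 11.14) and TSHZ3 (5.48 to 10.04). TGIF2, a repressor in TGF-beta signalling, read 11.03, 10.43 and 10.18 in control and 8.08, 7.60 and 7.36 in Twist. IRX3 went from 9.24 to 6.41 and DLX2 from 8.49 to 6.06. The limma fit called all 7 in the direction seen under DMSO.

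HOX genes give cells their position along the body axis. Of 15 measured, 4 were higher and 1 lower, and all 4 higher ones lay in the run of 9 neighbouring HOXC genes, of which 8 were measured. Only 1 of the 4, HOXC10, was 2-fold higher on all 3 pairs. The median of the 15 was 0.19 under DMSO and -0.045 and -0.45 on the Cmp302 pairs. HOXC10 read 4.07, 3.71 and 3.71 in control and 7.62, 6.92 and 6.09 in Twist, without overlap. HOXC11 went from 4.56 to 6.45, HOXC9 from 6.83 to 7.83 and HOXC6 from 9.06 to 10.84, the last without a call (limma adjusted p = 0.09). Under DMSO the median difference of the run was 0.66, and HOXC13, HOXC8, HOXC4 and HOXC5 were within 2-fold, at 0.31, 0.06, -0.12 and 0.19. HOXB9 was lost, from 6.93, 5.55 and 6.60 to the floor. HOXC9 and the genes within 2-fold were named after their values were seen.

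Forkhead factors had 4 higher and 3 lower of 21. FOXC2, a mesenchyme and lymphatic factor long tied to the epithelial-mesenchymal transition, was at the floor in control and read 10.37, 10.76 and 10.79 in Twist. FOXQ1 did the reverse, from 10.01, 9.73 and 9.28 to the floor. The fitted differences were 6.93 (SE 0.20) and -5.96 (SE 0.22), with limma adjusted p = 2.6e-05 and 3.4e-05. FOXL1 went from 4.48 to 7.58 and FOXN3 from 9.73 to 12.32, and FOXA1, a pioneer factor of luminal epithelium, from 6.55 to 4.78. FOXK2 read 11.84 and 10.74 without a call (limma adjusted p = 0.063).

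Of 7 SOX genes measured, 2 were higher and 3 lower. SOX4 read 11.40, 11.34 and 11.17 in control and 6.72, 6.47 and 6.14 in Twist, 25.6-fold lower under DMSO. SOX15 went from 10.74 to 5.34 and SOX9, a factor of mammary progenitors and cartilage, from 12.70 to 11.07. SOX12 went from 6.02 to 8.11. SOX6 read 4.07, 4.94 and 4.19 in control and 5.98, 4.83 and 4.90 in Twist, so its lines overlapped (limma adjusted p = 0.17).

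Among 17 Krüppel-like and SP factors, 3 were higher and 4 lower. KLF9 read 7.31, 7.28 and 6.72 in control and 11.65, 10.94 and 10.40 in Twist, a fitted difference of 3.89 (SE 0.24, limma adjusted p = 0.00021). KLF4, better known for its role in epithelial barrier cells, was higher too, at 10.10 and 11.97. KLF12 read 9.64 and 11.39 without a call (limma adjusted p = 0.14). KLF8 went from 7.11 to the floor, SP6 from 5.90 to the floor and KLF5, a basal epithelial factor, from 12.98 to 10.95.

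The list of p63, AP-2, grainyhead, OVOL and GATA factors, many of which act in epithelial differentiation, had 2 higher and 6 lower of 14. The fit called 2 and 7. TP63, the gene of p63, was not among the genes read here, so the list gives no value for it. GRHL2, a grainyhead factor that drives epithelial junction genes, read 11.81, 11.79 and 11.73 in control and the floor on every Twist array, at least 273-fold lower. TFCP2L1, a relative of grainyhead whose promoter holds 2 CACCTG or CAGGTG, read 11.43, 11.40 and 11.36 in control and the floor in Twist. OVOL2, a zinc finger repressor of mesenchymal genes, went from 8.14 to the floor. Its paralogue OVOL1 (7.30) and the epidermal factor ZNF750 (5.21) were also at the floor in Twist. The fitted differences for these 5 genes ran from -8.07 to -1.31, and limma called each. GRHL1, at 9.21 and 8.23, was within 2-fold under DMSO, and the fit called it lower (limma adjusted p = 0.025). GATA2 read 5.36 and 7.36 and GATA3, the luminal mammary GATA factor, 8.69 and 9.74. OVOL1, ZNF750 and GRHL1 were named after their values were seen.

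ETS factors had 2 higher and 4 lower of 20. The epithelial ETS factors EHF and ELF3 were lost. EHF read 11.66, 11.74 and 11.88 and ELF3 7.66, 7.32 and 7.38 in control, and both were at the floor on every Twist array. ETV1 went the other way, from the floor in control to 10.57, 9.79 and 9.50 (fitted difference 6.24, SE 0.26, limma adjusted p = 5.2e-05). ELK3 (12.39 and 13.42) and ELF4 (10.01 and 8.87) passed 2-fold under DMSO, but their lines overlapped over 6 arrays (limma adjusted p = 0.77 and 0.55).

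Basic helix-loop-helix factors, the class of TWIST1 itself, had 4 higher and 6 lower of 33, yet the fit called 8 higher and 2 lower of 32. TWIST2, the paralogue of TWIST1, read 8.46, 8.03 and 7.90 in control and 10.16, 10.20 and 9.88 in Twist. TWIST1 and TWIST2 are close paralogues, and whether their probe sets share signal was not tested. MITF went from 8.52 to 10.68. The inhibitors of the class moved apart: ID2 went from the floor to 5.55, while ID1, a BMP target, read 8.77, 7.99 and 8.28 in control and 5.06, 5.71 and 5.37 in Twist. MYC read 11.64, 11.16 and 10.15 in control and 9.28, 10.47 and 10.65 in Twist, and MXD1 11.39, 11.40 and 11.30 against 8.69, 10.79 and 11.45. For both, the low Twist value was the DMSO array, the lines overlapped and the fit made no call (limma adjusted p = 0.32 and 0.23).

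In the list of TCF/LEF, RUNX, T-box, NFI, MEF2, TEAD and NFAT factors, 6 were higher and 6 lower of 34. EBF1, a factor of B cells and mesenchymal stroma, was at the floor in control and read 11.06, 10.46 and 10.16 in Twist. TBX18 was at the floor in control and read 10.53, 8.77 and 8.15. RUNX2, the bone master factor, went from 10.25 to 12.01. LEF1, which carries Wnt signals to DNA, read 11.59, 11.34 and 11.38 in control and 7.52, 7.40 and 7.35 in Twist, and its relative TCF7L1 went from 7.33 to the floor. VGLL1, a TEAD co-factor, went from 7.79 to the floor.

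**Figure D3:**
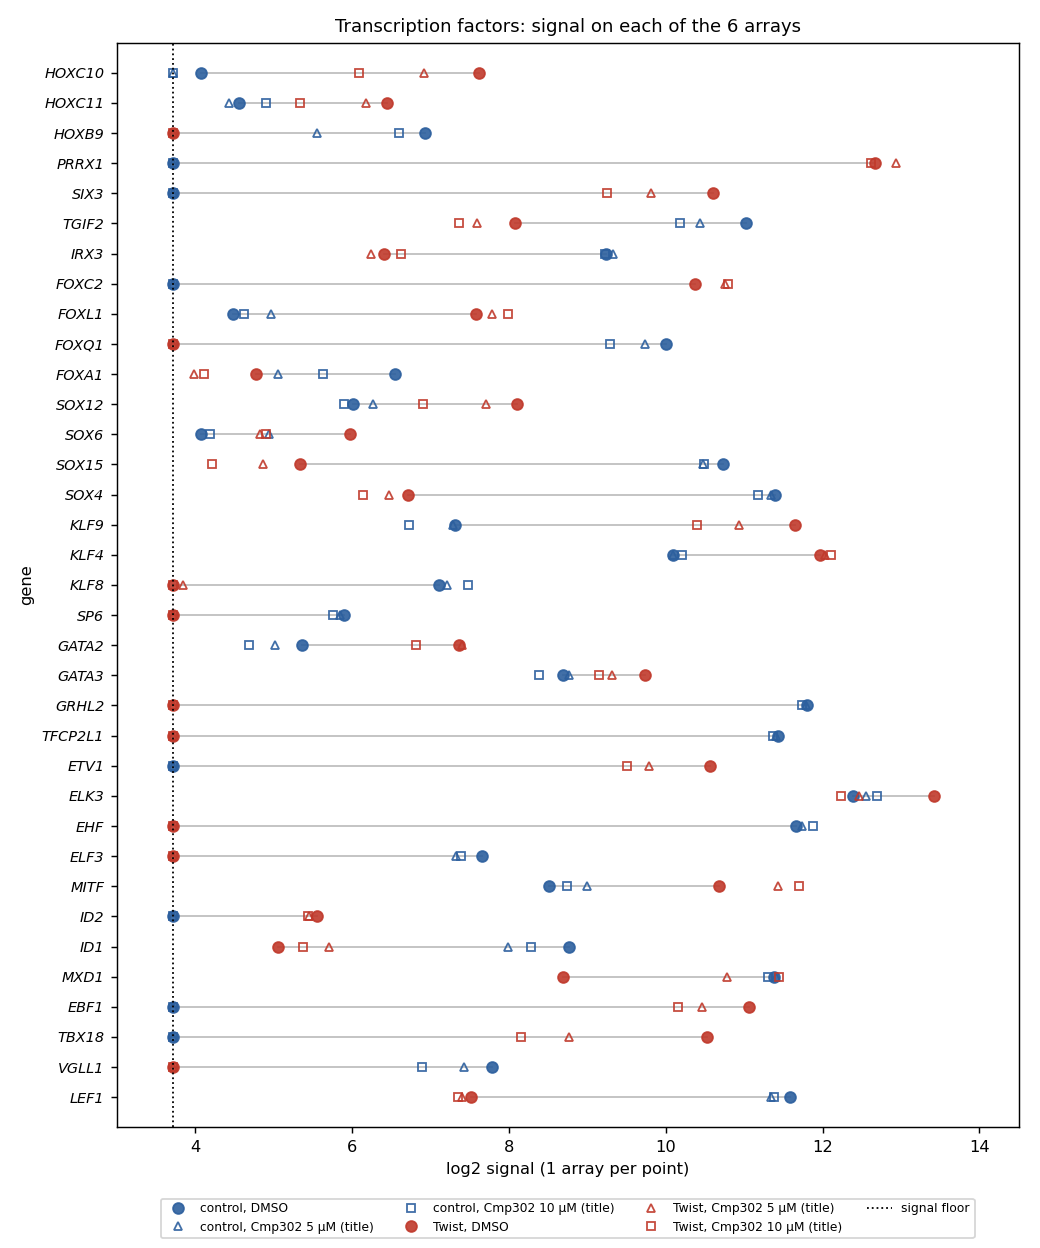
Log2 signal of transcription factor genes named by rule on each of the 6 arrays, 1 point per array, with blue for the control line, red for the Twist line, filled circles for DMSO joined by a grey line, and the dotted floor at 3.71. PRRX1, SIX3, FOXC2, ETV1, EBF1 and TBX18 are at the floor on all blue points, GRHL2, TFCP2L1, EHF, ELF3 and FOXQ1 on all red points, and SOX6, ELK3 and MXD1 overlap.

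Ion channels had more lower than higher members, 30 against 17 of 114. Potassium channels set the resting potential of cells, and 5 of 25 were higher and 7 lower. KCNMA1, the pore of the large-conductance calcium-activated BK channel, read 4.20, 3.87 and 4.03 in control and 11.24, 11.65 and 11.45 in Twist, 132-fold higher under DMSO. Its fitted difference was 7.41 (SE 0.23, limma adjusted p = 2.6e-05). The leak channels of the KCNK family were exchanged. KCNK2 (TREK-1) was at the floor in control and read 8.61, 7.59 and 6.33 in Twist, while KCNK1 was lost from 11.18, 11.14 and 10.72 to the floor and KCNK5 went from 9.58 to the floor. KCNK6, named after its values were seen, went from 8.79 to 3.78.

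KCNJ15, an inward rectifier of epithelia whose promoter is printed, read 10.97, 11.01 and 10.68 in control and the floor on every Twist array. KCNAB1, an auxiliary beta subunit, went from 6.52 to 8.90, and KCNJ2, the inward rectifier of excitable cells named after its values were seen, from the floor to 5.61. The limma fit called each of the potassium channel genes named here.

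Sodium and calcium channels had 5 higher and 4 lower of 29. The voltage-gated sodium channels SCN8A and SCN3A, which carry action potentials in neurons, were at the floor in control. SCN8A read 9.06, 8.78 and 8.68 in Twist and SCN3A 8.74, 7.40 and 6.94, with fitted differences of 5.13 (SE 0.18) and 3.98 (SE 0.36) and limma adjusted p = 3.1e-05 and 0.00086. The epithelial sodium channel moved down: SCNN1A read 11.59, 11.35 and 11.36 in control and 5.93, 5.61 and 5.38 in Twist, and SCNN1G went from 5.19 to the floor. The voltage-gated and the epithelial subunits thus stood on opposite sides in all 3 treatments. CACNA2D3 went from the floor to 5.33, and the calcium release channel ITPR3 from 10.70 to 9.20.

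None of 24 chloride channel genes was higher and 10 were lower, although over 6 arrays the fit called 2 higher and 8 lower of 25. FXYD3, a small regulator of the sodium pump that this list holds, read 12.91, 12.98 and 12.57 in control and the floor in Twist, at least 586-fold lower. ANO1, the calcium-activated chloride channel, went from 6.39 to the floor and CLCA2 from 10.36 to 7.74. The volume-regulated channel subunit LRRC8A, named after its values were seen, read 12.85 and 10.72 under DMSO without a call (limma adjusted p = 0.094).

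The TRP, PIEZO, acid-sensing and ligand-gated channels had 6 higher and 5 lower of 25. TRPA1, an irritant sensor of sensory neurons, was at the floor on all control arrays and read 10.50, 10.22 and 10.35 in Twist, at least 110-fold higher. The stretch-gated channel PIEZO2 went from the floor to 6.50, and its paralogue PIEZO1, named after its values were seen, from 8.96 to 7.38. The fit called both (limma adjusted p = 0.0001 and 0.0052). TRPV6 went from the floor to 6.66, and GABRP, a GABA receptor subunit of epithelia and basal breast cells, from 7.34 to the floor. MCOLN3 went from 10.91 to 8.62 and CHRNB1 from 6.27 to 4.56.

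Gap junction and water channel genes had 1 higher and 4 lower of 11, and the fit called 5 lower of 10. The connexin GJB6 read 11.74, 11.69 and 11.55 in control and the floor in Twist, and GJB5 went from 10.70 to the floor. GJB2, the most studied connexin of skin and inner ear, named after its values were seen, read 13.27, 13.21 and 12.99 against 6.61, 7.56 and 7.10. The water and glycerol channel AQP3 read 12.88, 12.91 and 12.95 in control and 5.55, 5.62 and 5.74 in Twist, 161-fold lower under DMSO. The lines did not overlap in any of the 4. GJC1, the higher member, read 10.63 and 11.89 under DMSO, and its lines overlapped over the 6 arrays (limma adjusted p = 0.53). Of its probe sets, 1 read the opposite sign under DMSO, at -0.11.

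Secreted factors had the lowest median of the 5 roles, with 93 members lower and 46 higher of 231. The lists were written by family, so these counts hold some members that are not secreted, such as FGF14 and SLITRK6. The ligands of the EGF receptor family were all lower or within 2-fold: of 6 measured, 4 were lower, and over 6 arrays the fit called 4 lower and 1 higher. TGFA read 11.42, 11.48 and 11.46 in control and the floor on every Twist array, at least 209-fold lower. HBEGF read 11.22, 10.94 and 10.91 in control and 6.38, 7.93 and 8.77 in Twist, and BTC went from 7.34 to the floor. The fitted differences were -7.74, -3.33 and -3.66 (SE 0.19, 0.52 and 0.14), with limma adjusted p = 2.6e-05, 0.0072 and 3.9e-05. The receptor EGFR is described above, and EGF was supplied in the medium of both lines.

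FGF, PDGF, VEGF, HGF, IGF and angiopoietin ligands had 11 higher and 7 lower of 30. FGF14, an intracellular FGF-like protein that regulates sodium channels, was at the floor in control and read 9.98, 9.02 and 8.34 in Twist. FGF5 went from 6.51 to 10.81 and ANGPT1, the ligand of the endothelial receptor TIE2, from the floor to 8.26. FGFBP1, a carrier that frees FGFs from the matrix, read 13.58, 13.56 and 13.30 in control and the floor in Twist, at least 933-fold lower (fitted difference -9.77, SE 0.21, limma adjusted p = 2.6e-05). FGF11, of the same FGF-like group as FGF14, and the ligand ARTN went from 7.88 and 7.84 to the floor.

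Some growth factors are given beside their receptors, chosen after the values were seen. HGF, the scatter factor, went from the floor to 7.83, 7.01 and 6.30, while its receptor MET was within 2-fold at 13.02 and 13.37. PDGFA read 11.89, 11.54 and 11.39 in control and 8.48, 8.76 and 8.27 in Twist, and PDGFB went from 5.12 to the floor. Their receptors PDGFRA and PDGFRB were the higher ones in Twist, as given above. FGF2 went from 10.84 to 12.20, BDNF from 5.03 to 7.39 and PTN from 4.63 to 7.44. PDGFC read 11.96 and 13.03 without a call (limma adjusted p = 0.14).

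TGF-beta and BMP ligands and antagonists had 4 higher and 7 lower of 24. The BMP antagonists were exchanged. GREM1 was at the floor on all control arrays and read 12.21, 12.19 and 12.06 in Twist, at least 361-fold higher (fitted difference 8.44, SE 0.20, limma adjusted p = 2.6e-05). NOG went from 9.97, 9.98 and 10.17 to 6.83, 7.51 and 7.58, and FST, which binds activin, from 12.09, 11.99 and 12.09 to 7.53, 8.36 and 7.90. The ligand BMP2 read 9.59, 9.33 and 9.52 in control and 3.71, 4.98 and 5.39 in Twist. LTBP1, which stores latent TGF-beta in the matrix, went from 9.18 to 12.67 and FSTL1 from 10.68 to 13.16. The ligands TGFB1 and TGFB2, named after their values were seen, were within 2-fold at 6.96 and 6.16 and at 9.97 and 10.69. INHBA, an activin subunit also named afterwards, read 12.42 and 9.39, and the fit made no call (limma adjusted p = 0.059).

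Wnt ligands and secreted antagonists had 3 higher and 3 lower of 10. WNT5A, a ligand that signals largely without beta-catenin, was at the floor in control and read 12, 11.75 and 11.37 in Twist, at least 312-fold higher. Its printed promoter holds 1 CACCTG. WNT5B was at the floor in control and read 8.78, 9.06 and 8.85 in Twist, and WNT2B went from 5.75 to 7.56. The antagonist SFRP1 read 9.32, 9.67 and 9.19 in control, and of the Twist arrays only the 5 µM one was above the floor, at 3.73. WNT9A went from 11.60 to 7.18 and WNT7A from 4.80 to 3.72. The limma fit called all 6 in these directions.

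IGF-binding and CCN proteins were the list with the largest share of higher members, 6 of 12 with 1 lower and a median difference of 0.99. The matricellular proteins CCN3 and CCN4 were at the floor in control and read 9.02, 8.02 and 6.81, and 7.71, 7.69 and 6.31, in Twist. IGFBP2 read 7.84, 7.41 and 7.70 against 10.82, 11.46 and 11.09. IGFBP4, IGFBP7 and CCN2, named after their values were seen, differed by 2.59, 2.04 and 1.89, and the fit called each. CCN6 went the other way, from 11.37 to 6.91.

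Inflammatory ligands were mostly lower. Of 23 interleukins and TNF ligands, 13 were lower and 1 higher, with a median difference of -1.72 under DMSO and -1.25 and -1.21 on the other pairs. IL1RN, the receptor antagonist, read 12.07, 11.80 and 12.05 in control and the floor in Twist, IL1A 10.26, 10.37 and 10.30 against 3.71, 4.33 and 4.58, and IL18 12.07, 12.25 and 12.39 against 5.11, 4.33 and 4.02. IL1B, named after its values were seen, read 9.68, 9.66 and 9.47 in control and 3.71, 4.30 and 4.62 in Twist. Agonists and the antagonist thus stood on the same side, and the receptor IL1R1 on the other.

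TSLP, an epithelial alarm cytokine, was the member that was higher, at 4.74, 4.48 and 4.56 in control and 7.34, 9.93 and 10.07 in Twist. Its fitted difference was 4.52 with an SE of 0.61 (limma adjusted p = 0.0041). LIF, the ligand of LIFR, named after its values were seen, read 8.27, 8.42 and 8.17 in control and 4.95, 8.40 and 8.67 in Twist. The lines overlapped, and the fit made no call (limma adjusted p = 0.43). TNFSF15 and TNFSF10 (TRAIL), also named afterwards, went from 9.17 and 7.21 to the floor.

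Chemokines had 1 higher and 5 lower of 15. CXCL17, a chemokine of mucosal epithelium, went from 7.78, 7.59 and 7.35 to the floor, CXCL16 from 12.01 to 8.46 and PPBP from 6.14 to the floor. CCL2, the monocyte attractant, went from the floor to 4.99, 6.10 and 5.87. The median of the list was -0.70 under DMSO and 0.04 and 0.00 on the Cmp302 pairs.

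Semaphorins, netrins and slits had 5 higher and 5 lower of 20. SLIT2, the ligand of ROBO receptors, read 8.03, 8.35 and 8.40 in control and 12.53, 12.82 and 12.88 in Twist. NTN4, a basement membrane netrin, read 8.67, 8.65 and 9.19 against 12.97, 12.35 and 12.01. SEMA5A went from 3.87 to 9.57. SLITRK6, a membrane protein listed with them, went from 9.83 to the floor, SEMA4B from 8.12 to 6.47 and SEMA4D from 10.98 to 9.35. One probe set of SEMA4D read the opposite sign, at 0.7.

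Matrix metalloproteinases, ADAM proteases and TIMPs had 9 higher and 10 lower of 32. The gelatinases went opposite ways, MMP9 from 7.80, 7.16 and 7.65 to the floor and MMP2, named after its values were seen, from 7.07, 6.51 and 6.66 to 9.09, 9.28 and 9.23. The fitted differences were -3.83 (SE 0.19) and 2.45 (SE 0.24), with limma adjusted p = 8.3e-05 and 0.0012. MMP10 went from 8.59 and MMP28 from 6.97 to the floor. ADAMTS12 was at the floor in control under DMSO and read 9.30 in Twist, ADAM33 went from 4.86 to 8.44 and ADAMTS1 from 7.22 to 9.88. MMP1 and MMP14, the membrane activator of MMP2, were lower, at 7.95 and 5.15 and at 9.20 and 6.89, and the inhibitor TIMP2 went from 10.80 to 12.95. These last 3 were named after their values were seen.

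Serpins, kallikreins and secreted protease inhibitors were the list with the largest share of lower genes. Of 44 measured, 30 were lower and 5 higher, and the median difference was -3.22 under DMSO and -2.97 and -3.10 on the other pairs. Under DMSO 23 members were above the floor in control and not in Twist, against 825 of all 12516 measured genes. The fit called 31 lower and 5 higher. KLK7, a skin-shedding protease, read 13.10, 13.32 and 13.17 in control and the floor in Twist. The elastase inhibitors SLPI and PI3 read 13.09, 12.55 and 12.13, and 12.96, 13.12 and 12.84, in control and at most 4.07 in Twist. Under DMSO they were at least 669-fold, 664-fold and 607-fold lower.

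In RefSeq order the kallikrein genes KLK5 to KLK14 form a run of 10 neighbours. Of the 9 measured, 7 were lower and none higher, with a median difference of -6.67. KLK10 differed by -9.21, KLK5 by -8.41, KLK6 by -7.53, KLK8 by -6.67, KLK11 by -5.09 and KLK12 by -1.11, while KLK13 and KLK14, near the floor in both lines, were within 2-fold. In a run of 9 clade B serpin genes all 5 measured were lower, with a median of -5.86: SERPINB13 (-8.23), SERPINB3 (-6.63), SERPINB7 (-5.86), SERPINB4 (-3.85) and SERPINB5 (-1.19). SERPINB3 and SERPINB4 are near-identical paralogues whose probe sets may share signal. Members of these runs other than KLK7 were named after their values were seen.

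Genes of clotting and plasmin formation were among the 5 higher members. TFPI, the tissue factor pathway inhibitor, read 6.48, 6.99 and 7 in control and 12.40, 12.41 and 12.27 in Twist. PLAT, tissue plasminogen activator, read 6.23, 6.12 and 6.38 against 10.69, 11.30 and 10.89. SERPINF1, an anti-angiogenic serpin, went from 7.58 to 10.03. The Kunitz inhibitors SPINT1 and SPINT2 and their target protease ST14 (matriptase), named after their values were seen, went from 10.66, 12.57 and 9.68 to the floor.

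S100 proteins, small calcium-binding proteins, had 8 lower and 1 higher of 15, with a median of -1.03 under DMSO and -0.52 and -0.53 on the Cmp302 pairs. S100A7 (psoriasin), whose promoter is printed, read 13.68, 13.45 and 13.29 in control and the floor in Twist, at least 999-fold lower (fitted difference -9.76, SE 0.21, limma adjusted p = 2.6e-05). S100P read 12.68, 12.10 and 11.83 and S100A14 12.59, 12.26 and 12.38 in control, and both were at the floor in Twist. The calprotectin subunits S100A8 and S100A9, named after their values were seen, went from 12.01 and 8.60 to the floor. S100A4, a gene often used to mark fibroblasts, went up from 10.37, 10.16 and 10.45 to 11.73, 11.92 and 11.34. In the run of 10 neighbouring S100A genes from S100A7 to S100A1, 4 were lower and 1 higher, so the run did not move as one.

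Metabolic genes as a whole, with transporters and G protein signalling genes counted among them, had 66 higher and 117 lower of 522. Glycolysis, gluconeogenesis and pentose phosphate genes had 2 higher and 8 lower of 47, with a median of -0.24 under DMSO and 0.01 and 0.08 on the Cmp302 pairs. The neuronal glucose carrier SLC2A3 read 8.84, 9.09 and 9.05 in control and 10.93, 10.59 and 10.67 in Twist, and ENO2, the neuronal enolase, went from 8.64 to 10.12. SLC2A9 went from 6.85 to the floor and PFKFB2 from 10.45 to 8.27. The central enzymes GAPDH, ALDOA, PKM and GPI, named after their values were seen, were lower by 1.26, 1.28, 1.05 and 1.18 under DMSO. The fit called none of these 4 (limma adjusted p = 0.96, 0.65, 0.32 and 0.81).

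A measure of RNA quality also differed between the 2 DMSO arrays. The contrast of 3' minus middle control probe sets for GAPDH and ACTB, which grows as RNA is degraded or copied incompletely, averaged 0.28 log2 units on the control DMSO array and 0.955 on the Twist DMSO array. On the Cmp302 arrays it was 0.45 and 0.835 in control and 0.355 and 0.445 in Twist. Its part in the DMSO differences was not tested. The 4 Cmp302 arrays did not set the DMSO calls, though they shared in the choice of probe sets. On those arrays 840 of the 1490 genes higher under DMSO were 2-fold higher on both pairs. Of the 1688 lower genes, 1077 were 2-fold lower on both. Among all measured genes 10.6% were 2-fold higher and 11.2% lower on both pairs.

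Citrate cycle and glutamine genes changed little: of 29 measured, 2 were higher and 1 lower, below both backgrounds. ME3, a mitochondrial malic enzyme, went from the floor to 5.20 and ACO1 from 10.14 to 11.51. PDHA1 read 12.67, 12.52 and 12.02 in control and 11.55, 12.62 and 12.66 in Twist, so its lines overlapped (limma adjusted p = 0.84). The gluconeogenic PCK2 and the asparagine synthetase ASNS, both known targets of the amino acid stress response, overlapped too. PCK2 read 9.17, 8.74 and 8.66 in control and 7.71, 10.96 and 11.48 in Twist, and ASNS 11.91, 11.72 and 11.66 against 10.12, 12.75 and 13.02. In each the Twist DMSO array was the lowest of the 6 and the other Twist arrays the highest.

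Fatty acid genes had 9 higher and 9 lower of 55. CPT1A, which commits fatty acids to oxidation, read 4.02, 4.02 and 4.21 in control and 9.23, 9.59 and 9.57 in Twist, 37.1-fold higher under DMSO (fitted difference 5.38, SE 0.19, limma adjusted p = 3.1e-05). FABP3, a fatty acid carrier of muscle, read 6.03, 6.09 and 6.21 against 10.75, 11.02 and 10.90, and the desaturase FADS2 went from the floor to 7.06. On the lower side ELOVL7, a fatty acid elongase, read 11.82, 12 and 11.87 in control and 4.79, 6.21 and 6.73 in Twist. The lipase LIPG went from 10.37 to the floor, the fatty acid importer SLC27A2 from 7.35 to the floor, and FASN, the fatty acid synthase named after its values were seen, from 9.81 to 7.97.

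Sphingolipid genes had 5 higher and 8 lower of 35. ST3GAL5, which makes the ganglioside GM3, read 9.15, 9.08 and 8.92 in control and 11.74, 11.40 and 10.18 in Twist. The sphingosine phosphate phosphatase SGPP2 went from 10.26 to the floor, ABCA12, the lipid transporter of the skin barrier, from 7.24 to the floor, and the kinase SPHK1, named after its values were seen, from 10.17 to 8.26. FUT1 read 11.88, 11.26 and 11.32 against 5.49, 7.01 and 8.02. SGMS1 (10.27 and 11.71) and ST8SIA1 (floor and 5.05) passed 2-fold under DMSO, but their lines overlapped (limma adjusted p = 0.68 and 0.11).

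Glycosyltransferases and sulfation enzymes, which build the sugar coat, had 8 higher and 23 lower of 64, and the fit called 28 lower. GALNT3, which starts mucin-type sugars, read 11.76, 11.89 and 12.02 in control and 4.67, 3.97 and 3.85 in Twist. GALNT6, named after its values were seen, went from 7.98 to the floor, ST6GALNAC2 from 10.57 to 4.19, and the fucosyltransferases FUT3 and FUT4, also named afterwards, from 7.20 to the floor and from 8.71 to 4.75. Heparan sulfate enzymes went both ways. SULF1 went from the floor to 9.18, 9.22 and 9.56, while its paralogue SULF2, named after its values were seen, went from 11.14, 11.08 and 10.83 to 6.72, 6.89 and 7.06, and HS3ST1 from 8.70 to the floor. CHST2 was at the floor in control and read 10.06, 11.14 and 11.13 in Twist, and the hyaluronan synthase HAS2 went from 6.85 to 10.40.

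Retinoid and aldehyde genes had 4 higher and 10 lower of 31. ALDH3B1 and ALDH3B2, paralogous aldehyde dehydrogenases, went apart: the first read 6.21, 6.02 and 5.68 in control and 8.68, 8.92 and 8.90 in Twist, and the second 7.37, 7.40 and 6.83 in control and the floor in Twist. RARRES1, a retinoid-induced gene, went from 9.86 to 6.26 and ADH1B from the floor to 5.35. SDR16C5 read 10.10, 10.30 and 10.25 in control and 6.55, 9.68 and 9.87 in Twist. Its low value was the Twist DMSO array and the fit made no call (limma adjusted p = 0.15). ALDH6A1 read 10.49 and 11.95, likewise without a call (limma adjusted p = 0.089).

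Steroid and drug metabolism genes had 7 higher and 12 lower of 40. SULT1E1, which inactivates oestrogens by sulfation, read 4.54, 4.52 and 4.73 in control and 12.50, 12.32 and 11.77 in Twist, 249-fold higher under DMSO (fitted difference 7.60, SE 0.27, limma adjusted p = 3.1e-05). SULT1B1 went from the floor to 8.32 and AKR1C1 from 8.96 to 11.03. CYP27B1, which makes active vitamin D, read 9.75, 9.82 and 9.71 in control and the floor in Twist, the same direction as its product's receptor VDR. CYP4F11 went from 6.34 to the floor and CYP27C1 from 9.45 to 6.98. The AKR1C genes are close paralogues whose probe sets can share signal.

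Nucleotide genes had 5 higher and 9 lower of 51. ENPP2 (autotaxin), the secreted enzyme that makes lysophosphatidic acid, was at the floor on all 3 control arrays and read 12.73, 12.87 and 12.81 in Twist, at least 518-fold higher (fitted difference 9.09, SE 0.20, limma adjusted p = 2.6e-05). Its relative ENPP1 was at the floor in control and read 11.58, 11.20 and 10.95. The cytidine deaminase CDA read 11.29, 10.74 and 10.70 in control and 4.84, 5.41 and 5.11 in Twist, AMPD3 went from 7.80 to 3.72 and XDH, the xanthine dehydrogenase of milk-secreting epithelium, from 9.30 to 5.97. DPYD read 8.41 and 10.58, and the fit made no call (limma adjusted p = 0.15).

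Eicosanoid enzymes had 3 higher and 6 lower of 21. PLAAT3, a phospholipase of fat tissue, read 5.77, 5.85 and 5.46 in control and 9.84, 10.47 and 10.38 in Twist. PLAAT4 went from 5.96 to 8.56 and the cyclooxygenase PTGS1 from 10.31 to 11.98. ALOX15B went from 8.47 to the floor and PLA2G4A, which frees arachidonic acid, from 7.65 to 3.74. PTGS2 (COX-2) read 8.04, 8.12 and 7.25 in control and 3.72, 7.33 and 8.24 in Twist. The DMSO array was the low one in Twist, the lines overlapped on the others, and the fit made no call (limma adjusted p = 0.37).

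Amino acid, amine and one-carbon genes had 8 higher and 6 lower of 47. The creatine pathway split between its steps: GATM, the first enzyme, read 8.79, 9.20 and 9.27 in control and the floor in Twist, and GAMT, the second, went from the floor to 5.54, 5.32 and 5.55. DDAH2 went from 5.17 to 6.95, TPH1 from 4.15 to 5.96 and AHCYL2 from 9.56 to 7.91.

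Transporters of metals, vitamins and organic ions had 2 higher and 17 lower of 48. LCN2 (lipocalin 2), an iron-siderophore carrier secreted by epithelia, read 13.74, 13.20 and 13.13 in control and the floor on every Twist array, and its fitted difference was -9.65 (SE 0.23, limma adjusted p = 2.6e-05). The amino acid carrier SLC6A14 went from 9.70 to the floor and the zinc and manganese carrier SLC39A8 from 11.87 to 6.93. The metalloreductase STEAP2, the zinc carrier SLC39A4 and the nucleoside carrier SLC29A2, named after their values were seen, differed by -4.58, -2.61 and -2.58. The 2 higher members were the urea channel SLC14A1 (floor to 6.14) and the ergothioneine carrier SLC22A4 (6.92 to 8.91).

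G protein, cyclase and phosphodiesterase genes had 11 higher and 8 lower of 54, and all 11 were higher on all 3 pairs. RGS4, which shortens signals of G protein-coupled receptors, was at the floor in control and read 12.19, 11.05 and 9.68 in Twist, at least 356-fold higher under DMSO. GNG11, a G protein gamma subunit, read 4.06, 4.00 and 4.26 in control and 11.83, 12.14 and 11.71 in Twist. GNAZ went from the floor to 9.35, and GNA15, a G protein alpha subunit of blood and epithelial cells, from 9.84 to 6.93. GUCY1A1 went from 6.15 and PDE5A, which breaks down cyclic GMP, from 5.97 to the floor. PDE4D, named after its values were seen, read 6.76, 6.50 and 6.08 against 9.26, 10.21 and 11.27, but 1 of its probe sets went the other way, by -1.4.

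**Figure D4:**
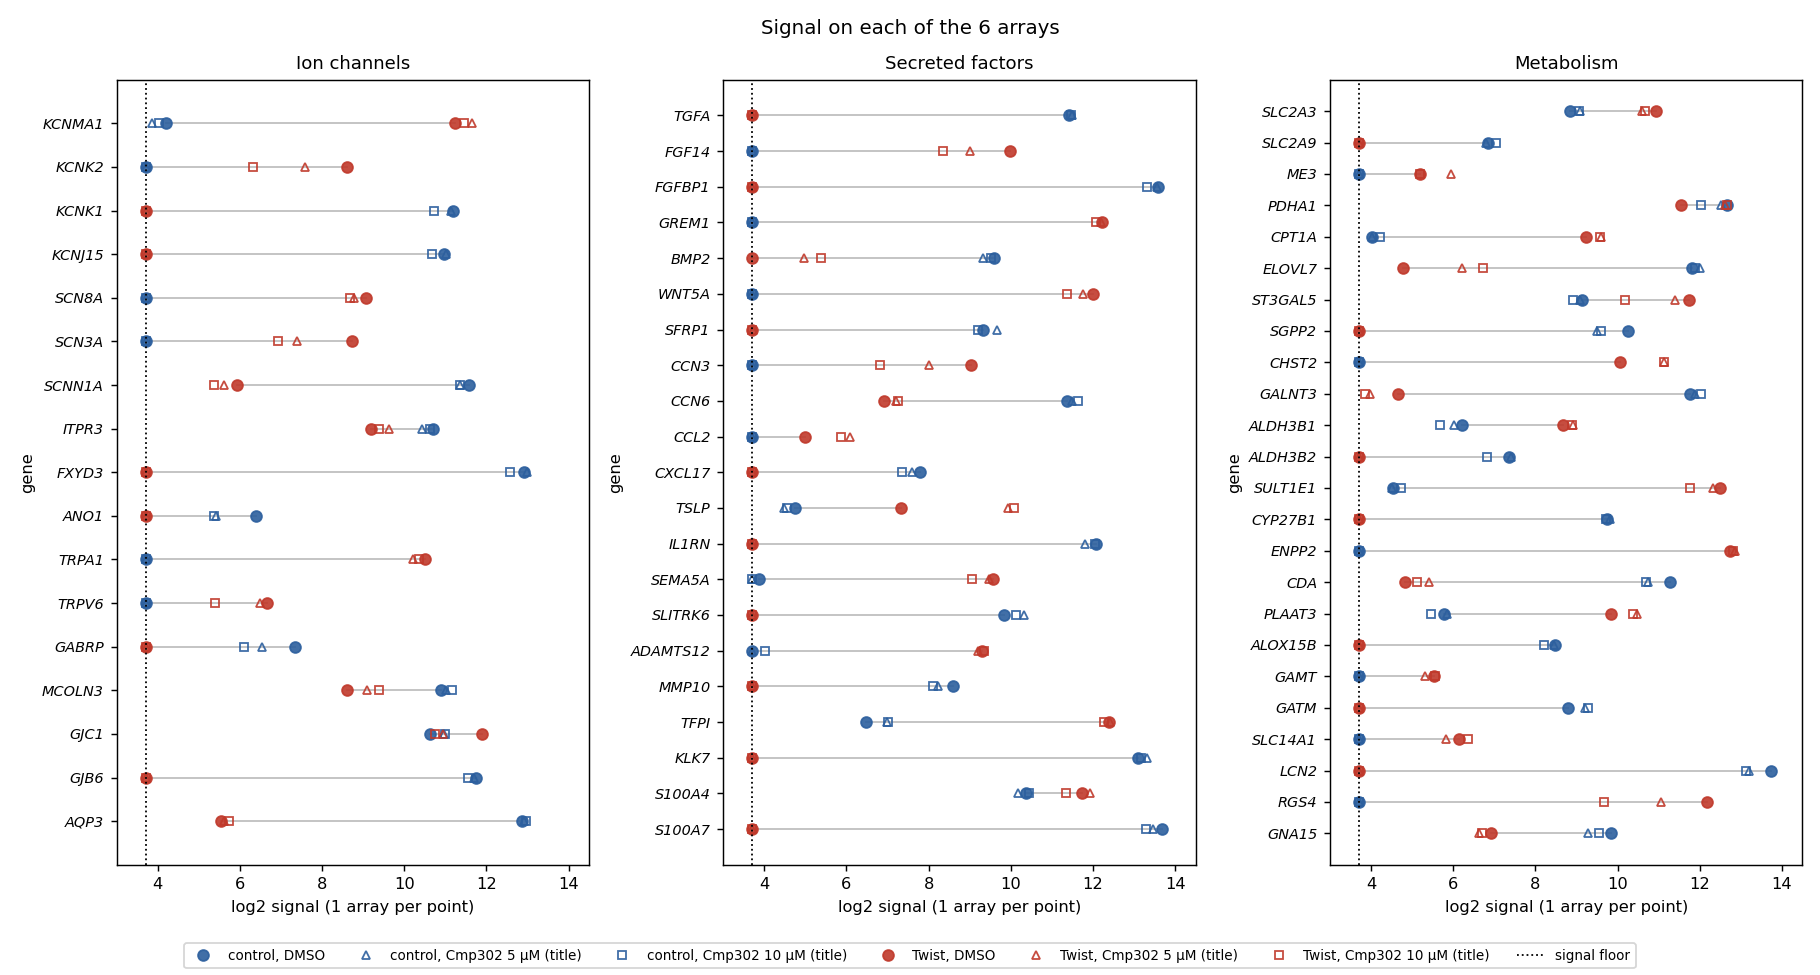
Log2 signal of ion channel, secreted factor and metabolic genes named by rule on each of the 6 arrays, 1 point per array, with blue for the control line, red for the Twist line, filled circles for DMSO joined by a grey line, and the dotted floor at 3.71. PDHA1 and GJC1 overlap between lines, and LCN2, S100A7 and FGFBP1 have all red points at the floor.

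Across the 245 genes named by rule in the lists, 115 were higher and 130 lower under DMSO. The DMSO arrays chose these genes, so they were counted again on the 4 Cmp302 arrays alone. The rule took the largest differences of each list, so a larger share than among all called genes follows from the choice. The probe sets were picked by mean signal over all 6 arrays, and the lists with earlier results known, so the recount is not independent support. There 97 of the 115 were 2-fold higher on both pairs and 118 of the 130 were 2-fold lower. Of all genes called under DMSO, 840 of 1490 and 1077 of 1688 were so. Both Twist arrays lay above both control arrays for 110 of the 115, and below them for 122 of the 130. Among all genes higher under DMSO the first held for 1242 of 1490, and among all lower genes the second for 1454 of 1688. Without regard to the DMSO arrays, the shares of all measured genes were 38.9% and 41.5%. The fit holds the DMSO arrays too, so its p-values for these genes are not independent of the choice. A gene it did not call is not shown to be alike in the lines. In 43 the control DMSO array and in 67 the Twist DMSO array was at the floor, where the fold is a bound. Among all 12516 measured genes these counts were 684 and 825. Of the 138 read by at least 2 probe sets above the floor, 2 (SEMA4D and GJC1) had a probe set of opposite sign. Probe sets of the same sign could still differ widely in size. Their differences ran from 0.33 to 7.77 in GNG11, 0.48 to 5.21 in CPT1A, -8.36 to -0.43 in IL1RN and -5.66 to -0.02 in SCNN1A. In GREM1 and WNT5A they were close, at 8.50 to 8.62 and 8.29 to 8.49. The value reported is that of the brightest probe set. The Cmp302 pairs hold other RNA of the same lines, so they show how a line difference held over treatments, and they are not replicates of the DMSO pair.

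**Figure D5:**
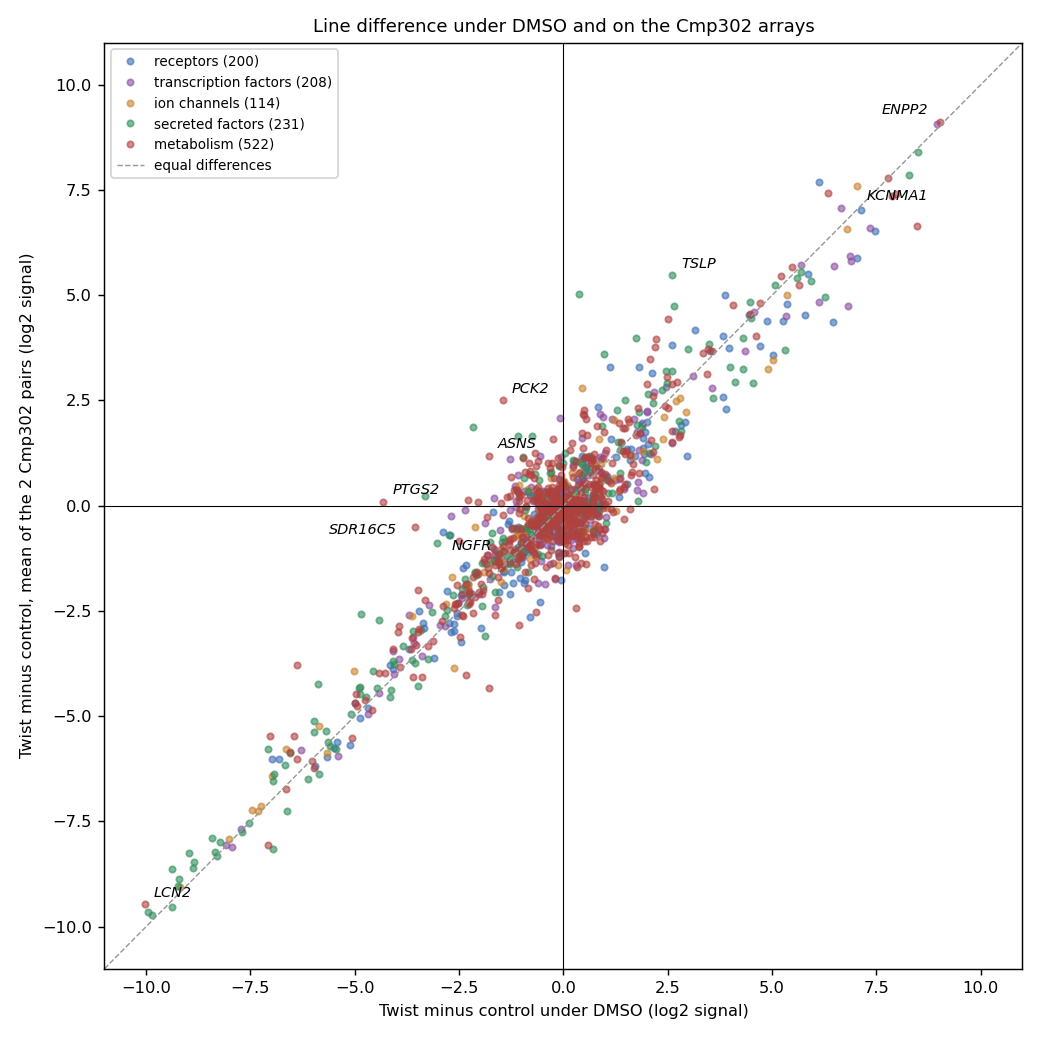
Twist minus control in log2 units under DMSO (horizontal) against the mean of the Cmp302 pairs (vertical) for the 1275 measured list members, coloured by role, 1 point per gene, with the dashed line at equal differences. Most points follow the line, while PCK2, ASNS and PTGS2, with -1.46, -1.79 and -4.32 under DMSO, lie above it.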

How the data were processed

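RNA of 6 samples was hybridised to Affymetrix Human Genome U133 Plus 2.0 arrays, 1 array per group. The authors deposited log2 signals, as judged from their range. The tool was GCOS 1.2, per the submitters' processing notes; the summarisation and normalization are not given in the sources used here. From the 54675 probe sets 62 controls were left out. Arrays were shifted to a common median over bright probe sets (offsets -0.03 to 0.01), and values under the median of all values (3.71) were set to it. A gene was read by its probe set of highest mean signal among 41091 with 1 symbol; 1801 with several and 11721 with none were not used. The precision is limited by the number of arrays.

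The DMSO pair was compared by a fixed 2-fold threshold, without a test. Limma 3.58.1 (R 4.3.3; trend; Benjamini-Hochberg at 0.05) was fitted over 6 arrays and was tested on simulated data. Named genes are the 3 highest and 3 lowest past 2-fold in each list, the 10 highest and 10 lowest of all genes, TWIST1, CDH1, VIM and the cell type markers. The members and lists were chosen with earlier results of these data known. Alternatives were another scaling, floor, probe set rule, filter, threshold and eBayes setting, and leaving out each treatment pair.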

Additional observations from a re-analysis of the deposited data

Results flagged for a closer look

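The line difference of 2 genes of amino acid stress had one sign under DMSO and the other on both Cmp302 pairs. PCK2, the mitochondrial gluconeogenic enzyme, differed between Twist and control by -1.46 log2 units under DMSO, by 2.21 on the pair titled 5 µM and by 2.82 on the pair titled 10 µM. ASNS, asparagine synthetase, differed by -1.79, 1.02 and 1.36 on the same pairs. The difference between the pairs was not tested, since each pair is 1 array per line. Each gene was read by 1 probe set above the floor. The Twist DMSO array also had the largest 3' minus middle contrast, 0.955 against 0.28 on the control DMSO array, and its part was not tested.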

How the results depend on the processing

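At a 4-fold threshold, 532 genes were higher and 775 lower under DMSO. The other DMSO counts, over all genes and over the list members, stayed within 1.5 times of those reported under every scaling, floor and probe set rule tried and with a Cmp302 pair in place of the DMSO pair, an alternative chosen after seeing the data. Limma called 1123 genes higher with the floor at the 65th percentile, 829 with no filter on low signals, and 3584 higher and 3701 lower without the DMSO pair. Leaving out the pair titled 5 µM gave 1168 higher and 1350 lower, and 1552 and 1704 without the pair titled 10 µM. Of the 257 named genes past 2-fold, 257 kept their side of 2-fold under the deposited scaling and quantile normalization, 219 of 243 with a value with the floor at the 65th percentile, 212 of 241 with the median over probe sets, 200 of 202 without probe sets prone to cross-hybridisation, and 256 with the probe set brightest under DMSO. No named gene changed sign under these, but sizes did: by more than the SD over the 3 treatment pairs, differences moved for 133 of 242 named genes and 24 of 46 list medians with the median over probe sets, and for 149 of 244 and 21 of 46 with the floor at the 65th percentile. The labels give no replicate numbers, so the limma fit matched the lines by treatment; with line as its only term it called 2221 genes higher and 2380 lower. Signals at the floor have no order, so losses to the floor are bounds.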
